A study of Danio rerio with 49 samples.

Results

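The windows described here are the constitutively late ones of wild-type (WT) zebrafish embryos, that is, the stretches of the genome that replicated late at every stage from gastrulation to 24 hours post fertilisation (hpf). They were chosen on the deposited z-score, in which each library's replication timing profile has a mean of 0 and an SD of 1 across windows, so that a lower value means later replication within that library. A window was taken when the mean z-score over the deposited WT columns was below -0.75 at each of the stages Shield, Bud and 24 hpf and the 24 hpf mean lay within 1 of the Shield mean. Windows of chromosome 4 centred at or beyond position 28000000 were left out. The rule gave 17002 of 120059 windows, or 14.2%. A further 245 windows were below -0.75 at the 3 stages and failed on the difference between stages, and 146 failed on the chromosome 4 limit alone.

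All embryos were of the Tab5 strain. The mutant group was homozygous for the omf201 allele of rif1 (omf201 below), in every cell of the embryo, and was compared with WT embryos of 4 ages, namely 2 to 2.5 hpf (preMBT, ahead of the mid-blastula transition), 6 hpf (Shield), 10 hpf (Bud) and 24 hpf. Pools of whole embryos, unsorted, stood for S phase at preMBT and Shield, whereas nuclei sorted by DNA content gave S and G1 fractions at Bud and 24 hpf, and the sentence on the sorter names a later age than 24 hpf. The genotype of the mothers, whose stored RNA and protein serve the preMBT embryo, is not given in the sources used here. There were 3 omf201 and 3 WT libraries at preMBT, 5 and 6 at Shield, and 4 and 4 at each later stage, with 8 G1 libraries per genotype as the copy number reference. At Shield, omf201 libraries 1 and 2, WT libraries 1 and 2 and WT libraries 3 and 4 agreed within sampling noise (chi-square over its degrees of freedom, 0.965 to 1.06). These 3 pairs were therefore averaged, with 1 sample counted for each, which left 4 samples of either genotype. The preMBT libraries of each genotype also differed by about the sampling noise, so their spread may be technical only. They were not averaged, and each was counted as a sample. Each library held between 5.09 and 32.2 M counts (M, mega) in windows that do not overlap, which is a counting error of 2.34% to 5.89% for a single window before smoothing. In such pools, a change in the mix of cells and a change of timing within cells cannot be told apart.

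During S phase, DNA that has already been copied outnumbers DNA that has not, so the copy number of a locus in S-phase nuclei, relative to G1, tells how early it replicates. In vertebrate cells late replication is typical of gene-poor, compact chromatin, often at the nuclear periphery, whereas early replication is typical of gene-rich, active chromatin. Rif1, known from yeast and mammalian cells, brings protein phosphatase 1 to chromatin, where the phosphatase opposes the kinase that activates the replicative helicase at origins, and it is a main regulator of late origin firing. The zebrafish embryo starts with fast cleavage cycles, and its timing programme takes shape after the mid-blastula transition.

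The late windows formed blocks on all 25 chromosomes. Joining windows whose centres lay at most 20 kb apart gave 612 runs. The length of a run was taken as the distance between its first and last centres plus 10 kb. The median length was 225 kb, with a range of 10 to 2360 kb, and the runs together spanned 181.7 Mb. The 115 runs of at least 500 kb held 8213 windows, or 48.3% of the late windows. The share of late windows, in runs of any length, was lowest on chromosome 4, at 4.51%. On that chromosome the share was taken of the 2725 windows outside the distal part that the rule leaves out. The share was highest on chromosomes 18 and 14, at 23.2% and 23.9%. Late windows lay within 1 Mb of a chromosome's first or last window in 1.58% of cases, against 2.82% of all windows, and within 5 Mb in 16.9% of cases, against 16.9% of all windows. Neighbouring windows overlap and share reads, so these counts do not count independent regions. Some runs are parts of a single late block, split where centres lay over 20 kb apart. The runs at chr8:34670000-34770001 and chr8:34720000-34850001, for example, overlap in span, with WT means of -1.88 and -1.80 at 24 hpf.

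In WT the values that chose the windows had group means of -1.37 ± 0.0193 (Shield), -1.54 ± 0.0155 (Bud) and -1.37 ± 0.0125 (24 hpf), as mean ± SD over samples with n = 4 at each stage, and they carry no test. The authors' smoothed ratio sets the copy number of a library against G1, with 1 as the genome average. On it the same windows averaged 0.887 in WT at Shield, where the libraries were of whole embryos. In the sorted S-phase nuclei they averaged 0.839 at Bud and 0.802 at 24 hpf. Because the rule weighted every deposited Shield column equally and the samples here do not, 99.0% of the late windows lay below -0.75 in the Shield mean over the 4 samples. At the border, 1141 windows just inside the limit averaged -0.645 in omf201 and -1.09 in WT at 24 hpf, and 1139 windows just outside averaged -0.590 in omf201 and -1.03 in WT.

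Before the mid-blastula transition these windows lay near the genome average. Averaged over the 17002 windows, the z-score was 0.0150, -0.00142 and -0.0228 in the 3 omf201 samples, against -0.0802, -0.158 and -0.153 in the 3 WT samples. The omf201 samples sat at the genome average and all lay above the WT samples, which were slightly below it. The group means were -0.00307 ± 0.0190 in omf201 and -0.130 ± 0.0434 in WT (SD, n = 3 each), a difference of 0.127. On the smoothed ratio the means were 1.001 in omf201 and 0.998 in WT, a difference of only 0.00349. Late windows in the omf201 samples had a mean percentile rank of 49.5 within the library, and in the WT samples one of 47.0. Below -0.75 lay 19.5% of the late windows in the omf201 mean, against 18.0% of all windows, and 18.5% of them in the WT mean, against 17.5% of all windows. The sign of the omf201 mean is not settled, since it was 0.00679 without omf201 replicate 3 and 0.0324 when both genotypes were set against one common G1 reference. Windows early in WT by the mirrored rule, described below, averaged -0.147 in omf201 and -0.268 in WT at preMBT. A mean below average in WT and a higher one in omf201 were thus not particular to the late windows.

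The preMBT contrast used no library of the rule, apart from the WT G1 reference in the ratios. With limma on the z-scores of all windows and Benjamini-Hochberg adjustment, 2229 late windows, or 13.1%, passed an adjusted p of 0.05, which is near the 12.7% of all windows called. The calls split into 9.79% higher and 3.32% lower in omf201, against 6.47% and 6.27% of all windows. Raw counts tested with edgeR's quasi-likelihood test gave 3.85% higher and 2.31% lower, against 2.54% and 2.96% of all windows, and a common G1 reference gave 14.9% higher and 7.06% lower, against 9.64% and 8.66% of all windows. The median difference over late windows was 0.0533, with a median SE of 0.400 for a single window. As each preMBT library was counted as a sample, the spread behind these calls may be technical only.

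**Figure D1:**
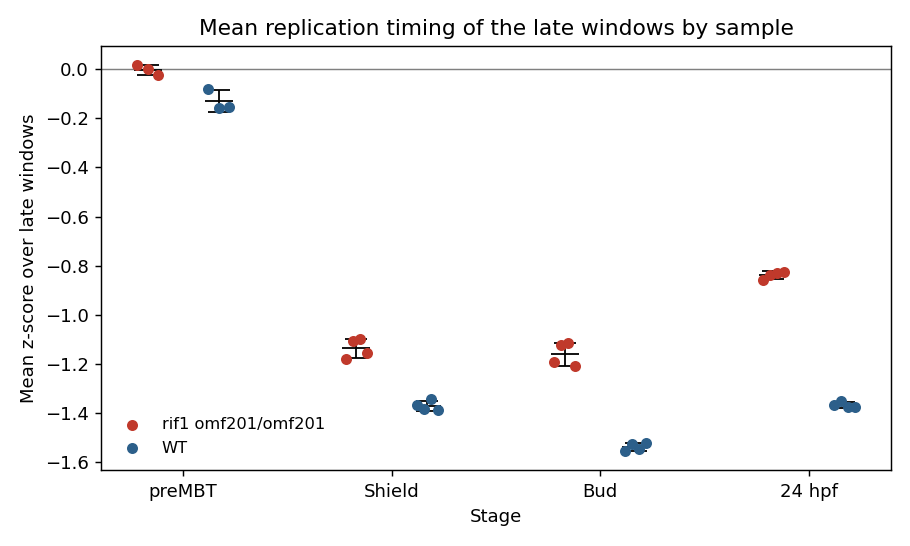
Mean z-score over the 17002 late windows in each sample (points) at the 4 stages, with omf201 left of WT at each stage and bars for the group mean and SD; the values at Shield, Bud and 24 hpf in WT chose the windows. The omf201 points lie above the WT points at every stage, by 0.127 on average at preMBT and by 0.530 at 24 hpf. Each z-score is in units of its own library's SD. On the smoothed ratio these differences were 0.00349 at preMBT and 0.101 at 24 hpf.

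After the transition the late windows were late in the mutant as well, in libraries the rule did not use, but less so than in WT. At Shield the mean z-score was -1.18, -1.11, -1.10 and -1.16 in the omf201 samples, against -1.37, -1.38, -1.34 and -1.39 in the WT samples. At Bud it was -1.19, -1.12, -1.12 and -1.21 in the omf201 samples, against -1.55, -1.52, -1.55 and -1.52 in the WT samples. Every omf201 sample was above every WT sample at both stages. At 24 hpf it was -0.859, -0.837, -0.829 and -0.826 in the omf201 samples, against -1.37, -1.35, -1.38 and -1.38 in the WT samples, again without overlap. Over the 4 omf201 samples the mean ± SD was -1.14 ± 0.0386 (Shield), -1.16 ± 0.0471 (Bud) and -0.838 ± 0.0150 (24 hpf). The distance to WT was 0.234 at Shield, 0.377 at Bud and 0.530 at 24 hpf. Since WT values chose the windows, part of this distance can come from the choice. The next comparison addresses only the part due to noise between WT samples.

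To see the part due to noise in the choosing samples, the rule was applied to part of the WT samples. The distance was then taken to the WT samples left over. With WT Shield libraries 1 to 4 and WT replicates 1 and 2 of Bud and 24 hpf as the choosing samples, 16880 windows qualified, and omf201 lay 0.222 above the remaining WT samples at Shield, 0.368 at Bud and 0.534 at 24 hpf. In these windows the remaining WT samples differed from the choosing ones by 0.0206 at Shield, 0.0109 at Bud and -0.0105 at 24 hpf. With the choice made the other way round, 16458 windows qualified, and omf201 lay 0.227, 0.381 and 0.519 above the remaining WT samples at the 3 stages in order. The held-out distances were thus close to the 0.234, 0.377 and 0.530 measured with all samples, and no omf201 sample overlapped a held-out WT sample at any of the 3 stages. Per window, limma with Benjamini-Hochberg adjustment against the remaining WT samples called 13.3% and 18.9% of the late windows at Shield in these choices, against 12.7% and 13.5% of all windows, and 20.8% and 24.0% at Bud, against 22.6% and 23.9% of all windows. These fits hold fewer WT samples than those with all. G1 references are shared within a genotype and were not held out. The WT samples left over also share the genotype of the choosing ones. This comparison therefore cannot remove the effect of choosing windows by their level in WT.

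The shift was also present on the ratio scale, which does not force a common SD on every library. The smoothed ratio of the late windows averaged 0.936 in omf201 and 0.887 in WT at Shield, 0.920 and 0.839 at Bud, and 0.902 in omf201 and 0.802 in WT at 24 hpf. On the log2 scale these are differences of 0.08, 0.13 and 0.17. Windows early in WT moved the other way on this scale, as given below. Percentile ranks, which like z-scores give every library the same spread, averaged 17.0 in omf201 and 11.2 in WT at Shield, 16.6 and 9.63 at Bud, and 23.4 in omf201 and 10.9 in WT at 24 hpf.

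The late windows kept their class to differing degrees in the mutant. In omf201 the mean z-score lay below -0.75 in 75.2% of them at Shield, 78.6% at Bud and 62.9% at 24 hpf, where 22.7%, 23.7% and 24.7% of all windows did. Among the late windows 44.5% were below -0.75 in omf201 at all 3 stages, or 7572 windows, compared with 8.06% of all windows. Above the genome average in omf201 were 387 late windows (2.28%) at Shield, 434 (2.55%) at Bud and 1254 (7.38%) at 24 hpf. Of all windows, 48.9%, 48.2% and 42.0% were above it in omf201 at these stages. None was above 0 in WT at these stages, as the rule requires. Applied to the omf201 means, the same rule gave 8769 windows, or 7.3% of all windows, against 14.2% for WT. Of these, 6950 were shared with WT: 40.9% of the WT late windows and 79.3% of the omf201 ones. The smaller size of the omf201 set limits the first of these 2 shares.

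**Figure D2:**
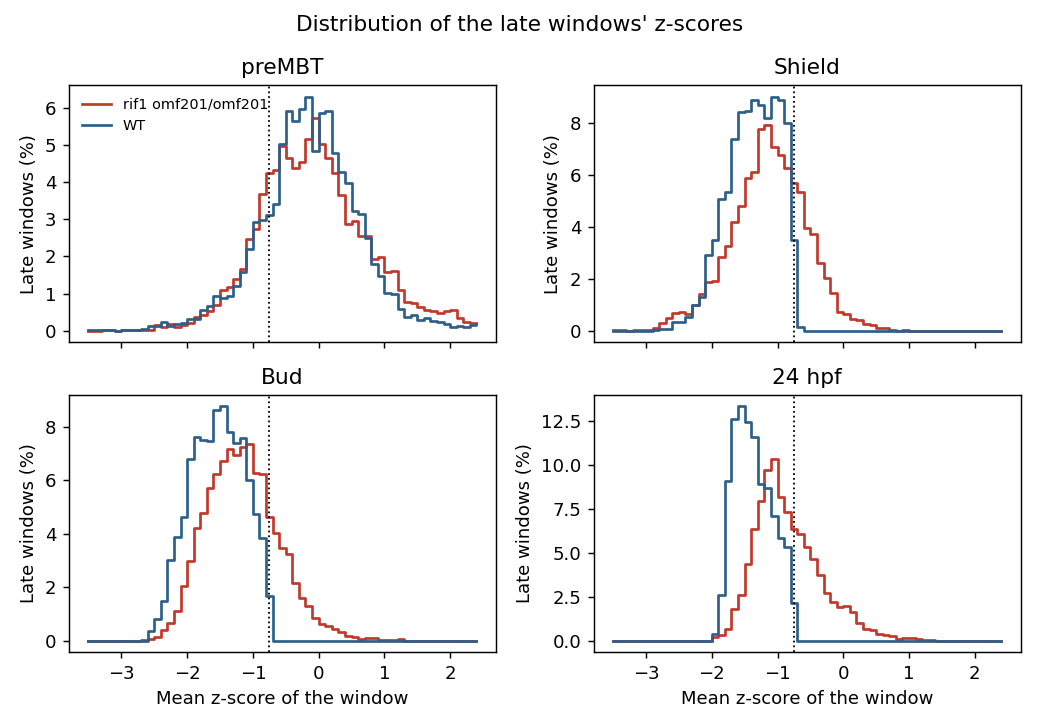
Percent of late windows (y axis) by mean z-score (x axis) at the 4 stages in omf201 and in WT, with the rule's limit of -0.75 as a dotted line. At preMBT both genotypes centre near 0, and at 24 hpf 62.9% of the late windows lie below the limit in omf201 while all of them do in WT.

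Among themselves the late windows spread more in the mutant. Across late windows the SD of the z-score within a sample was 0.626 ± 0.0447 in omf201 and 0.428 ± 0.0241 in WT at Shield, 0.624 ± 0.0311 and 0.442 ± 0.0114 at Bud, and 0.529 ± 0.0148 in omf201 and 0.310 ± 0.00914 in WT at 24 hpf (SD over samples, n = 4 each). The limit at -0.75 truncates the WT distribution by construction, so the genotypes are not on equal terms here. Replicates also spread more in the mutant, in late windows as in all windows. At 24 hpf the median SD of a late window between samples was 0.140 in omf201 and 0.108 in WT, and over all windows it was 0.143 in omf201 and 0.115 in WT. At Bud it was 0.286 in omf201 and 0.169 in WT for late windows, and 0.289 in omf201 and 0.179 in WT for all windows. Across late windows the omf201 mean correlated with the WT mean at Pearson's r = 0.671 (Shield), 0.586 (Bud) and 0.523 (24 hpf), and across all windows at 0.893, 0.815 and 0.709 (n = 17002 and 120059 overlapping windows). A narrow choice of values lowers such a correlation.

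Per window, the limma test between omf201 and WT called 35.5% of the late windows at Shield, 43.1% at Bud and 77.1% at 24 hpf after Benjamini-Hochberg adjustment, while it called 29.6%, 43.9% and 73.3% of all windows. At Shield 30.0% of late windows were higher and 5.49% lower in omf201, against 15.2% and 14.4% of all windows. At Bud 40.5% were higher and 2.61% lower, against 22.1% and 21.8% of all windows. At 24 hpf 74.6% were higher and 2.51% lower, against 37.8% and 35.5% of all windows. The rule used the WT values of these contrasts, so the direction of the split is given as a description. The median difference with the median SE of a single window was 0.23 ± 0.16 (Shield), 0.37 ± 0.18 (Bud) and 0.50 ± 0.097 (24 hpf). A positive difference at 24 hpf was found in 90.0% of late windows, against 51.35% of all windows. On the log2 ratios at Shield, 81.4% of late windows were called higher and 0.259% lower by limma, against 26.8% and 26% of all windows. On percentile ranks at Shield limma called 18.1% higher and 2.32% lower, or 20.4% in all, which is under the 23.4% of all windows (11.8% higher and 11.6% lower). On percentile ranks at Bud 22.2% were higher and 2.53% lower, or 24.7% in all, under the 36.9% of all windows (18.3% higher and 18.6% lower). On percentile ranks at 24 hpf 52.8% were higher and 8.09% lower, or 60.9% in all, under the 67.9% of all windows (34.3% higher and 33.6% lower).

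The size of the genotype difference also changed between stages in some late windows, by limma's test of that change with Benjamini-Hochberg adjustment. For Bud minus Shield 20.6% of the late windows were called, against 25.5% of all windows, with 15.4% higher and 5.26% lower at Bud, against 12.6% and 12.9% of all windows. For 24 hpf minus Bud 17.6% were called, against 26.4% of all windows, with 14.2% higher and 3.39% lower at 24 hpf, against 13.1% and 13.3% of all windows. WT values of these stages chose the windows, so these shares too are a description.

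**Figure D3:**
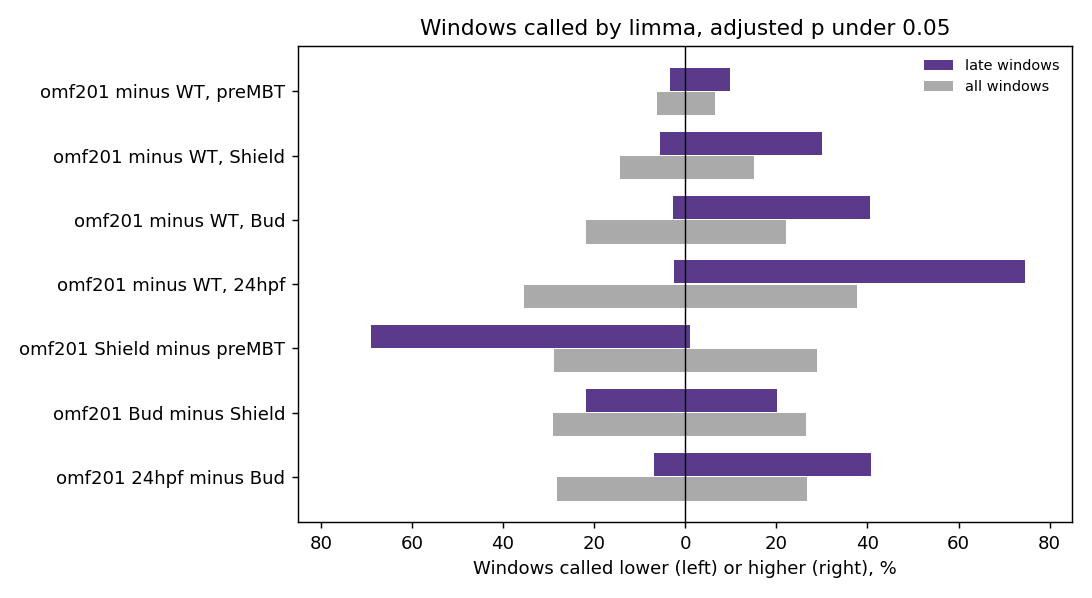
Percent of late windows and of all windows called higher or lower by limma (adjusted p under 0.05, Benjamini-Hochberg) for the omf201 minus WT contrasts and for the steps between stages in omf201. Of the late windows 74.6% were called higher in omf201 at 24 hpf, against 37.8% of all windows. In either direction 77.1% were called, against 73.3% of all windows. WT values at Shield, Bud and 24 hpf chose the windows, so the direction of the split at these stages is a description.

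Steps between stages within omf201 used neither the libraries nor the G1 reference of the rule. They are still not independent of the choice, and are a description. At Shield, a stage of the rule, the omf201 and WT means correlated at Pearson's r = 0.893 across all windows. Between preMBT and Shield, limma with Benjamini-Hochberg adjustment called 70.2% of the late windows, against 57.8% of all windows. At Shield 69.0% were lower and 1.15% higher than at preMBT, against 28.8% and 29.0% of all windows. The median step was -1.04, with a median SE of 0.272. Of the raw counts, edgeR called 55.9% lower and 0.823% higher, against 20.9% and 22.2% of all windows. In the limma test, windows early in WT by the mirrored rule went the other way, with 81.2% higher and 2.19% lower.

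From Shield to Bud the direction of the omf201 step in the late windows depended on the scale. On the z-scores the limma test called 20.1% higher and 21.8% lower at Bud than at Shield after Benjamini-Hochberg adjustment, or 41.9% in all, against 26.4%, 29.0% and 55.5% of all windows, and the median step was -0.0621 with a median SE of 0.208. Without Bud omf201 replicate 4 the shares were 19.7% and 19.7%, and without Shield omf201 replicate 4 they were 17.9% higher and 17.5% lower. On the log2 ratios limma called 12.7% higher and 36.1% lower, against 25.4% and 30.4% of all windows. On the counts edgeR called 6.51% higher and 13.1% lower, against 15.6% and 13.2% of all windows. This step changed the kind of sample, from whole embryos to sorted nuclei, together with the stage, and their effects cannot be told apart.

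From Bud to 24 hpf the direction turned with the scale. On the z-scores limma called 40.7% of the late windows higher and 6.95% lower at 24 hpf than at Bud after Benjamini-Hochberg adjustment, or 47.6% in all, against 26.7%, 28.2% and 54.9% of all windows, with a median step of 0.310 and a median SE of 0.168. On percentile ranks limma called 30.7% higher and 8.20% lower, against 24.1% and 24.9% of all windows. On the log2 ratios, however, limma called 15.5% higher and 40.9% lower, against 29.2% and 39.6% of all windows, and edgeR on the counts called 9.03% higher and 12.5% lower, against 21.1% and 17.3%. In omf201 the late windows had a mean smoothed ratio of 0.920 at Bud and, at 24 hpf, of 0.902. Relative to the spread of their own library the windows were thus higher at 24 hpf than at Bud, while their mean copy number ratio was not.

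The longest run lay at chr12:38850000-41260001 (authors' windows, GRCz11) and was also among the 3 long runs of lowest WT value. At 24 hpf its mean z-score was -1.23, -1.23, -1.26 and -1.21 in the omf201 samples, against -1.67, -1.67, -1.67 and -1.69 in the WT samples, so it stayed far below average in both genotypes and the samples did not overlap. At Bud it was -2.08, -1.96, -1.99 and -2.03 in the omf201 samples, against -2.25, -2.15, -2.43 and -2.27 in the WT samples. At Shield omf201 averaged -1.51 ± 0.253 and WT -1.84 ± 0.0900 (SD, n = 4 each), with omf201 sample 1 at -1.82 inside the WT range of -1.90 to -1.71. Before the transition the run was only moderately below average, at -0.399 ± 0.0635 in omf201 and -0.435 ± 0.322 in WT (SD, n = 3 each).

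**Figure D4:**
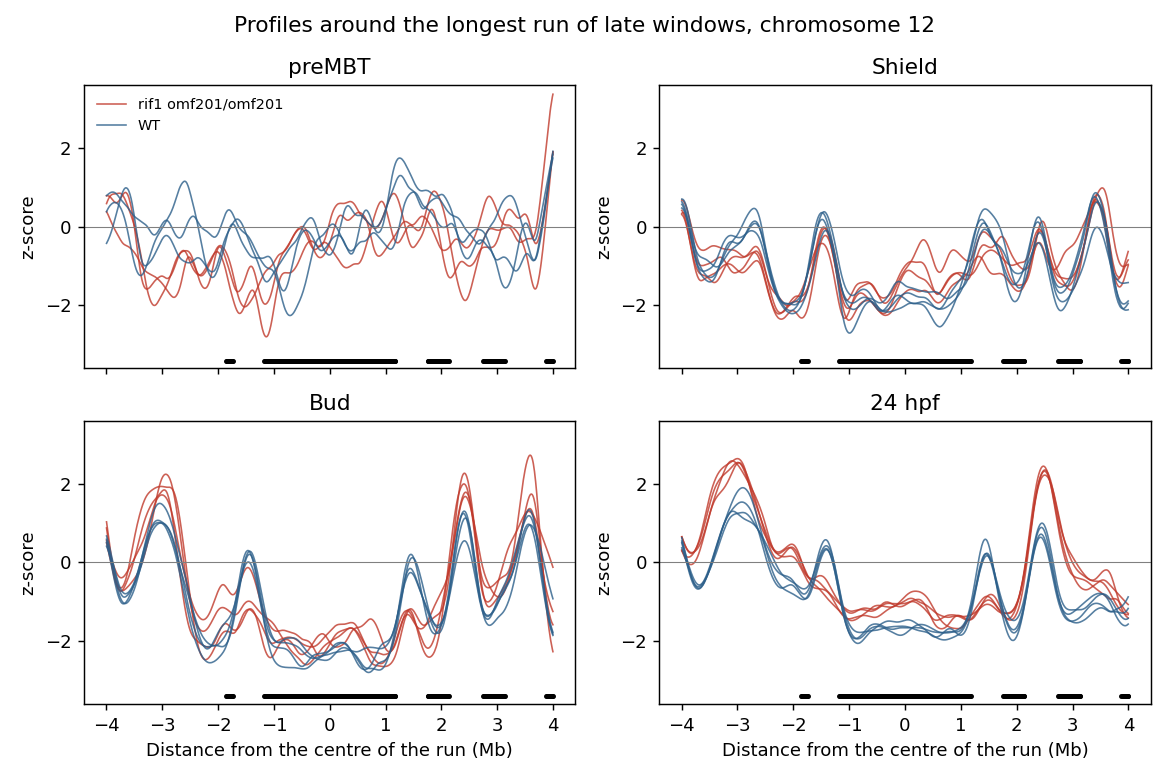
Profiles of the z-score (y axis) around the centre of the longest run on chromosome 12 (x axis, distance in Mb) at the 4 stages, one line per sample of omf201 and WT, with black marks for late windows. At 24 hpf the run averages -1.23 in omf201 and -1.68 in WT.

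Just beyond this run, in windows picked for a high WT value, omf201 lay below WT at 24 hpf. The window of highest 24 hpf WT value within 500 kb of the lower edge, chr12:38610000-38670001, lay 240 kb from it and had -0.872, -0.687, -0.717 and -0.431 in the omf201 samples, against 0.576, 0.352, 0.322 and 0.423 in the WT samples. Its counterpart beyond the upper edge, chr12:41480000-41540001, had -0.862, -0.887, -0.968 and -1.07 in the omf201 samples, against 0.167, 0.231, 0.578 and 0.221 in the WT samples. Both were above the genome average in every WT sample and below it in every omf201 sample, and both were picked for their WT value after the profile had been seen. Such a pick favours this order of the genotypes. Averaged over the long runs, positions 200 kb outside an edge had -0.380 in omf201 and -0.480 in WT at 24 hpf.

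The next longest runs also stayed late in the mutant. The run at chr20:10430000-12360001 had a z-score below average already at preMBT, at -1.05 ± 0.0316 in omf201 and -1.71 ± 0.224 in WT (SD, n = 3 each). At 24 hpf it had -0.800, -1.25, -0.599 and -0.921 in the omf201 samples, against -1.87, -1.41, -1.46 and -1.33 in the WT samples. At Shield this run was lower in omf201, at -2.28 ± 0.0833 against -2.05 ± 0.272 in WT (SD, n = 4 each), with overlapping samples. The run at chr18:27950000-29760001 was above average at preMBT, with 0.637, 0.561 and 0.555 in the omf201 samples and 0.880, 1.33 and 0.522 in the WT samples. These runs thus shared a late class after the transition and differed in their preMBT level. At Bud the chromosome 18 run had -0.820, -1.17, -0.687 and -1.03 in the omf201 samples, against -2.19, -2.07, -1.98 and -2.27 in the WT samples, a difference of 1.20 and the highest at Bud among the 18 named runs. At 24 hpf the same run had -0.881 ± 0.0239 in omf201 and -1.53 ± 0.286 in WT (SD, n = 4 each).

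Of the other 7 runs among the 10 longest, 6 had 24 hpf means between -1.12 and -0.864 in omf201 and between -1.56 and -1.28 in WT, with differences of 0.335 to 0.668 and no overlap between samples. They lie at chr15:12170000-13770001, chr24:29130000-30660001, chr11:8830000-10300001, chr1:31820000-33280001, chr14:12940000-14280001 and chr12:11810000-13010001. The remaining one, at chr19:35720000-37100001, stood apart with -0.354, -0.494, -0.510 and -0.432 in the omf201 samples at 24 hpf, against -1.54, -1.60, -1.63 and -1.53 in the WT samples. Its difference of 1.13 exceeded those of the other 9, and its omf201 samples lay above the limit of -0.75 while its WT samples lay far below it. The other runs of lowest WT value, chr18:3840000-4590001 and chr17:40120000-40890001, had -1.51 ± 0.0730 and -1.11 ± 0.117 in omf201 at 24 hpf, against -1.76 ± 0.122 and -1.67 ± 0.0362 in WT (SD, n = 4 each). On chromosome 18 the highest WT sample of that run, at -1.59, was within the omf201 range.

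Across all 115 long runs the 24 hpf difference ranged from -0.239 to 1.34 with a median of 0.534, and 109 runs were higher and 6 lower in omf201. Of all single windows, 51.35% were higher in omf201 at 24 hpf. The runs were chosen for low WT values at this stage too, which favours this order of the genotypes, so the split is a description. In 76 of these runs the omf201 mean was still below -0.75, and in 4 it was above 0. The runs of highest difference lay at chr14:27000000-27760001, chr11:20170000-20800001 and chr14:28830000-29650001. The first had 0.0679, 0.0842, 0.196 and 0.0241 in the omf201 samples at 24 hpf, against -1.10, -1.13, -1.40 and -1.34 in the WT samples. The run on chromosome 11 had 0.406, 0.392, 0.218 and 0.0859 in the omf201 samples, against -1.04, -1.03, -1.07 and -1.07 in the WT samples. In both regions every omf201 sample was above the genome average at 24 hpf and every WT sample far below it. The third averaged 0.113 ± 0.180 in omf201 and -1.20 ± 0.0726 in WT at 24 hpf (SD, n = 4 each). At Bud the regions on chromosomes 14 and 11 described first were still below average in omf201, at -0.834 ± 0.163 for the chromosome 14 run and -0.882 ± 0.428 for the chromosome 11 run, against -1.54 ± 0.204 and -1.75 ± 0.136 in WT (SD, n = 4 each).

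In 6 long runs the mutant was lower at 24 hpf, with differences no further from 0 than -0.239. The run at chr24:39990000-40920001 had -1.69, -1.79, -1.80 and -1.75 in the omf201 samples at 24 hpf, against -1.58, -1.42, -1.54 and -1.54 in the WT samples, a difference of -0.239 without overlap. At Shield this run had been higher in omf201, at -0.884 ± 0.165 against -1.36 ± 0.229 in WT (SD, n = 4 each). The run at chr7:3560000-4480001 averaged -1.54 ± 0.0618 in omf201 and -1.40 ± 0.0899 in WT, and the run at chr17:38890000-39670001 averaged -1.23 ± 0.0892 in omf201 and -1.11 ± 0.0312 in WT (SD, n = 4 each). In both of these the samples of the genotypes overlapped at 24 hpf. The extremes were picked by their difference and are shown as the range of the runs.

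**Figure D5:**
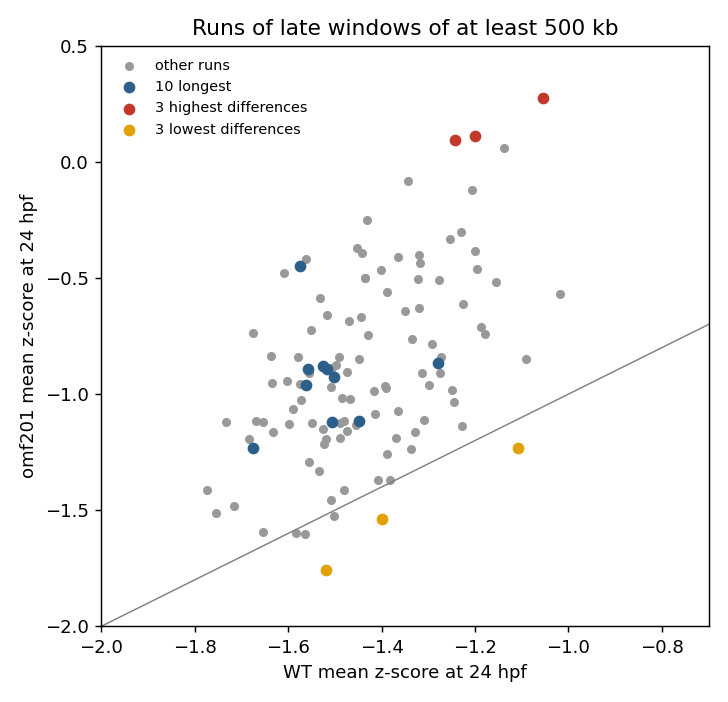
Mean z-score at 24 hpf of the 115 runs of at least 500 kb, WT on the x axis and omf201 on the y axis, with the line of equal values. Above the line lie 109 runs and below it 6, and 4 runs reach a positive omf201 mean. Low WT values at 24 hpf were part of the choice of these runs, which favours points above the line.

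Run length, which the WT limit and gaps of over 20 kb between centres set, went with the level at 24 hpf. In runs of 500 kb and over the late windows averaged -0.899 in omf201 and -1.45 in WT at 24 hpf, in runs of 100 to under 500 kb -0.782 and -1.30, and in runs under 100 kb -0.768 in omf201 and -1.21 in WT. The share of windows below -0.75 in omf201 at 24 hpf was 68.6% in the runs of 500 kb and over and 57.7% in those of 100 to under 500 kb, and 57.8% in those under 100 kb. At Shield the omf201 means did not follow run length, at -1.21 in the runs of 500 kb and over, -1.07 in those of 100 to under 500 kb and -1.10 in those under 100 kb. The edges of a run are where WT values cross the limit or where centres lie over 20 kb apart. Across edges of the first kind the WT profile is set by the rule. Edge values were taken for the runs of 500 kb and over only. At their 230 edge windows the mean was -0.768 in omf201 and -1.16 in WT at 24 hpf. At 202 positions 200 kb inside it was -0.885 and -1.50, and at 211 positions 200 kb outside it was -0.380 in omf201 and -0.480 in WT.

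By chromosome, the late windows averaged between -1.03 on chromosome 1 and -0.550 on chromosome 11 in omf201 at 24 hpf, and between -1.44 on chromosome 19 and -1.27 on chromosome 11 in WT. The difference was positive on each of the 25 chromosomes, from 0.364 on chromosome 5 to 0.761 on chromosome 4, where it rests on 123 windows. The rule required low WT values at 24 hpf on every chromosome, which favours this sign, so it is a description. The omf201 mean stayed below -0.75 in 79.2% of late windows on chromosome 20 and in 28.5% on chromosome 4.

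Another 2 sets of windows serve for comparison. The mirrored rule gave 14998 early windows, whose omf201 minus WT difference was -0.0818 at Shield, -0.223 at Bud and -0.614 at 24 hpf, opposite in sign to the late windows at each of these stages. At preMBT the difference was 0.122 in early windows, close to the 0.127 of late ones. On the log2 ratios at Shield, limma with Benjamini-Hochberg adjustment called 67.9% of early windows lower and 0.44% higher in omf201, against 26% and 26.8% of all windows. At Bud 65.8% were lower and 0.167% higher, against 28.2% and 29.2% of all windows. Calls towards the genome average on this scale were thus not particular to the late windows. The 8769 windows that the rule picks on the omf201 means had differences of 0.0230 at Shield, 0.0342 at Bud and 0.164 at 24 hpf. At 24 hpf the omf201 samples of these windows, at -1.17 to -1.14, lay above the WT samples, at -1.33 to -1.30. At Shield they overlapped, at -1.34 to -1.23 in omf201 and -1.31 to -1.28 in WT, and likewise at Bud, at -1.47 to -1.38 in omf201 and -1.48 to -1.44 in WT.

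Copy number in G1 was compared because G1 libraries are the denominator of every profile. In the quasi-likelihood test of edgeR with Benjamini-Hochberg adjustment, 2.94% of the late windows differed between omf201 and WT G1 at Bud, against 2.70% of all windows, and 4.33% at 24 hpf, against 3.68% of all windows. At 24 hpf the share was 2.56% without omf201 G1 replicate 2, against 2.14% of all windows, and 2.18% without omf201 G1 replicate 4, against 1.80% of all windows. Without WT G1 replicate 1 or without omf201 G1 replicate 4 more late windows were lower than higher. The median log2 fold change of late windows in G1 was 0.00 at Bud and 0.01 at 24 hpf. In the 15984 late windows called at neither stage in G1, the 24 hpf difference between omf201 and WT profiles was 0.533.

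Late windows were wider than 60 kb more often than all windows, though the median width was 60 kb in both. Most windows span 60 kb, and why others are wider is not given in the sources used here. Of the late windows, 16.6% were wider than 60 kb, against 9.22% of all windows. In the 2828 wider late windows the mean at 24 hpf was -1.05 in omf201 and -1.45 in WT, and in the 14102 windows of 60 kb it was -0.796 in omf201 and -1.35 in WT. The difference was thus 0.404 in the wider windows and 0.556 in those of 60 kb. At preMBT the wider late windows had 0.442 in omf201 and 0.118 in WT, and those of 60 kb had -0.0962 in omf201 and -0.179 in WT.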

How the data were processed

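Whole-genome sequencing libraries (49) gave counts per window. The authors deposited whole-number counts, ratios of each mean-scaled library to the G1 median of its genotype, smoothed ratios, log2 values of these and z-scores, a score with the mean of a library subtracted and divided by its SD. Per the labels, RepliTimer v1.0.11 was used; the submitters' processing notes name fastp, BWA, Picard and GRCz11, with roles not given in the sources used here. Recomputed ratios, log2 values and z-scores differed from the deposited ones by at most 7.19e-07. The smoothing was a spline over 97 stretches, so neighbouring windows are not independent.

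For z-scores the test was limma 3.58.1 (R 4.3.3) over 120059 windows, each fit holding only the groups compared, with Benjamini-Hochberg adjustment over all windows and a limit of 0.05. Counts were tested with edgeR 4.0.16 (quasi-likelihood, TMM), with DESeq2 1.42.0 as an alternative for G1. The tests were tried on simulated data first. Summaries used Python 3.11.15, numpy 2.4.6, pandas 2.3.3 and scipy 1.17.1, and plots matplotlib 3.10.9. Library pairs of a group were compared by chi-square over 1-Mb bins, and 3 Shield pairs were averaged. The preMBT libraries were exempt from this averaging, though most of their pairs also agreed within sampling noise. Labels do not say that replicates were separate clutches, so p-values measure only the spread between these samples, and counting errors cover counting only, as reads were not tagged by molecule. Correlations of the deviations of same-numbered samples were -0.0566 to 0.108 between genotypes and, in omf201 between Bud and 24 hpf, 0.0301 to 0.190; in no comparison did every pair exceed 0.1, so numbers were not taken as pairs.

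Runs are late windows of a chromosome with centres at most 20 kb apart. Named were the 10 longest, the 3 of at least 500 kb with the lowest WT mean, and the 3 of at least 500 kb with the highest and the 3 with the lowest 24 hpf difference, 18 in all; the windows flanking the longest run were added after its profile had been seen. Members, lists and named runs were chosen with earlier results of these data known. The gene table at hand is of another assembly than the files, so gene names, gene lists and sequences planned for these windows were not used here. Alternatives tried were other scales, a common G1 reference, a stricter limit, members chosen on part of the WT samples, windows that do not overlap, the replicate number as a block, unaveraged libraries, counts in edgeR, and each sample left out in turn.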

Additional observations from a re-analysis of the deposited data

Results flagged for a closer look

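The omf201 minus WT difference itself changed between stages in some late windows. With limma and Benjamini-Hochberg adjustment this change passed the test in 20.6% of the late windows for Bud minus Shield and in 17.6% for 24 hpf minus Bud, against 25.5% and 26.4% of all windows. In both the late windows held more calls towards a higher difference at the later stage than towards a lower one, at 15.4% against 5.26% and 14.2% against 3.39%. The WT values in these contrasts chose the windows, and the first contrast also spans the change from whole embryos to sorted nuclei.

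Among the groups of values looked at for this, single samples did not stand apart, though in other values some did. The mean log2 ratio of the late windows at Bud was -0.229 in WT replicate 4, against -0.268 to -0.264 in the other WT samples. In the run at chr18:3840000-4590001 omf201 replicate 2 had -1.29 at Bud, against -1.94 to -1.87 in the other omf201 samples. In the 42 groups of values looked at, 0 had a highest or lowest sample set off from its group beyond Dixon's limit, where chance gives about 5%.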

How the results depend on the processing

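Of 205 alternative values, 174 kept their direction and stayed near the reported one. In what follows the share of all windows called stands in brackets. At 24 hpf, every alternative run kept the omf201 minus WT calls within 1.5 times of 77.1% (73.3%) and mostly higher. Leaving out a sample gave 73.2% to 76.5% (70% to 72.3%), and percentile ranks gave 60.9% (67.9%). Calls at preMBT became 6.36% (6.11%) on percentile ranks, 22.0% (18.3%) with a common G1 reference and 6.16% (5.50%) with edgeR. Those at Shield became 81.6% (52.8%) on log2 ratios, 20.4% (23.4%) on percentile ranks, and 13.3% (12.7%) and 18.9% (13.5%) with members chosen on part of the WT samples. Those at Bud became 90.0% (57.4%), 24.7% (36.9%), 20.8% (22.6%) and 24.0% (23.9%) in that order. With members chosen on part of WT, fewer WT samples enter the test. With the replicate block, which no pairing backs, the Shield share was 21.2% (17.7%), and the block moved no other share by over 1.5 times. For omf201 from Shield to Bud edgeR gave 19.6% (28.8%), and leaving out a sample gave 35.4% to 42.4%. From Bud to 24 hpf the direction turned on log2 ratios at 56.4% (68.8%) and with edgeR at 21.5% (38.4%). For G1, DESeq2 gave 0.953% (0.838%) at Bud, and leaving out a library gave 2.18% to 4.35% (1.80% to 3.55%) at 24 hpf. With a WT limit of -1 the omf201 mean became -1.28 (Shield), -1.29 (Bud) and -0.911 (24 hpf), and the share below -0.75 became 84.2%, 85.6% and 68.9% at these stages. That share was 60.8% at 24 hpf with a common G1 reference. The preMBT mean became -0.184 in WT with the limit of -1 and 0.0324 in omf201 with a common G1 reference, and was -0.0121 to 0.00679 in omf201 with a sample left out. Other causes were not tested. Keeping only late windows 60 kb wide, or only those without G1 calls, was chosen after seeing the data and kept each call share within 1.5 times. Single windows were least precise at preMBT, where the median SE of the genotype difference was 0.400; the cause was not tested.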
